A study of Mus musculus with 4 samples.

Results

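The Gadd45 genes and 7 further regulators of cell growth and division were followed in mouse liver across a fast and a short meal. The 10 genes were Gadd45a, Gadd45b, Gadd45g, Cdkn1a, Cdkn1b, Ccng2, Btg1, Btg2, Ccnd1 and Myc, out of 30986 genes named on the array. They were chosen by name with their fasted over refed ratios already known, so those ratios are given as a description and without a p-value. The mice were C57BL/6J males, 8 to 12 weeks old, and the total RNA of their livers was compared on 4 two-colour oligonucleotide arrays. Fasted mice had no food for 24 h, and refed mice had the same 24 h fast followed by 2 h with food, so no fed animals without a fast were included. Each array held 1 fasted and 1 refed liver and is called a replicate here (n = 4). On replicates 1 and 2 the fasted liver carried the dye Cy5 and the refed liver Cy3, and on replicates 3 and 4 the dyes were swapped.

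The 3 Gadd45 proteins are small stress-induced proteins that bind p21, PCNA, the cell cycle kinase Cdk1 and the MAP kinase kinase kinase Map3k4, and they take part in growth arrest, DNA repair and stress signalling. Cdkn1a (p21) and Cdkn1b (p27) are inhibitors of cyclin-dependent kinases, Ccng2 is an unconventional cyclin that slows the cycle, and Btg1 and Btg2 are antiproliferative adaptors of the mRNA deadenylation machinery. Ccnd1 (cyclin D1) and Myc act in the opposite way and promote entry into the cell cycle, so the name growth arrest genes does not cover them. In adult liver most hepatocytes rest outside the cycle, and several of these genes are known to follow nutrients, insulin, glucocorticoids and cAMP.

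The 250 bases before the annotated start are printed for the 3 Gadd45 genes, to set the promoters of the family side by side. A link between motifs and the direction of change was not tested. Those of Btg1 and Btg2 are printed because they alone among the 8 members whose promoters could be searched hold the core of the cAMP response element, the site bound by CREB. The sequences come from RefSeq in the GRCm38.p6 build and read 5′ to 3′ along the gene, and 8 of the 10 members matched the promoter table (Ccnd1 and Myc are named only). Capitals mark matches on either strand to TGACGTCA (the full cAMP response element), TGACG (its core, which lies within the full element), TATAAA (the TATA box), CACGTG (the E-box) and CCAAT (the box of that name).
Gadd45a (chr6:67037408-67037657, minus strand): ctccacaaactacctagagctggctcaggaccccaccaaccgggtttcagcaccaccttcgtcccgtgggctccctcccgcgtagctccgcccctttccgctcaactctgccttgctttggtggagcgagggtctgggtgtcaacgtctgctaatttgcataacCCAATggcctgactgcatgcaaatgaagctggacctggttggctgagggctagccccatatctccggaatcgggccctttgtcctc
Gadd45b (chr10:80929841-80930090, plus strand): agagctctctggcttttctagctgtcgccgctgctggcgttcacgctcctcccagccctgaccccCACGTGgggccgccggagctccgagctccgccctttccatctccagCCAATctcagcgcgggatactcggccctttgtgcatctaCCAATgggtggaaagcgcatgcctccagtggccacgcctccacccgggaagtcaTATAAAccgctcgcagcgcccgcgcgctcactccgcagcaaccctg
Gadd45g (chr13:51846425-51846674, plus strand): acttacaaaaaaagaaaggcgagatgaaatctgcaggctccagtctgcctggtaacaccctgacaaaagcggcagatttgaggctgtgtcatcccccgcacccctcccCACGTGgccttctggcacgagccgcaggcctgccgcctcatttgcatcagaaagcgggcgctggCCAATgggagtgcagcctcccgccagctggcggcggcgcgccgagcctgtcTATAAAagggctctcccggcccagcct
Btg1 (chr10:96616751-96617000, plus strand): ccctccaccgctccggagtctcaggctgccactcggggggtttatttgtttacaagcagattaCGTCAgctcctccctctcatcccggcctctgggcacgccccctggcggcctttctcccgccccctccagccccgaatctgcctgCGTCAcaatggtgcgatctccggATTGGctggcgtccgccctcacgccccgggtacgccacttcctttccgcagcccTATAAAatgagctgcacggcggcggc
Btg2 (chr1:134079156-134079405, minus strand): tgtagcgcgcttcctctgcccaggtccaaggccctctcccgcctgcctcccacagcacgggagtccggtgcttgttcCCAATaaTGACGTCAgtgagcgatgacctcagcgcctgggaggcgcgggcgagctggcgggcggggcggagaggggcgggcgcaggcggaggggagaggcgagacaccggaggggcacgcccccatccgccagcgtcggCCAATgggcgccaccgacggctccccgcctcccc

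The Gadd45b and Gadd45g promoters each held the TATA box, the E-box and the CCAAT box, whereas the Gadd45a window held only the last. The TATA box began 46 bases before the start in Gadd45b and 27 bases before it in Gadd45g. It was also present in Btg1, which gave 3 of 8 members, against 12.37% of all 32851 promoters in the same window. The E-box was found in 2 of 8 members and in 6.02% of all promoters, and the CCAAT box in 6 of 8 members and in 33.85% of all promoters. TGACG was found in Btg1 and Btg2 and in 17.77% of all promoters, and the full TGACGTCA in Btg2 only, 166 bases before its start, and in 1.55% of all promoters. None of these 5 motifs was found before either annotated start of Cdkn1a or before that of Ccng2. Members were counted by gene and the background by promoter. The member windows were 54.0 to 73.2% G and C, against a median of 52.4% for all promoters, and the part of this in the shares was not tested. These are matches of letters and not sites of binding.

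The members were measured by 13 probes, of which 11 passed the filter on signal, and all 10 genes kept at least 1 probe. Probes are 60 bases long and are placed in the mm9 build by the files. Which exon or untranslated region each probe lies in was not analysed here. The median signal of gene spots was 40 to 75 in red and 44 to 96 in green, against a median local background of 25 to 35 in red and 20 to 33 in green, so many spots were dim. Hepatocyte markers were well above background in every liver (8 of 8). Their mean ratio was 0.34, 0.49, 0.09 and 0.04 on replicates 1 to 4, with 1 of 8 called, and that of endothelial markers was 0.20, 0.20, -0.10 and 0.22. The part of either in the results was not tested. Among the other markers, Epcam and Krt7 of bile duct cells, Ms4a1 of B cells, and Plin1 and Lep of adipocytes were never well above background. Replicate 3 stood apart, because its refed liver held transcripts of pancreatic acinar cells. The mean ratio of that marker list, over the 9 of 10 genes that were measured and of which 3 passed the filter, was -3.81 on replicate 3, whereas the other replicates gave -0.09 to 0.03. Its summed level lay between 842 and 1728 in fasted livers and between 823 and 31892 in refed livers. The mean ratios of the members and of the called related genes are therefore also given without replicate 3. Those means no longer hold both dye orientations equally, so they can also shift with orientation. Erythroid markers had mean ratios of 1.06 and 1.4 on replicates 1 and 3 and of -0.23 and 0.21 on replicates 2 and 4, and their part in the results was not tested. In whole liver, fewer cells of a type and less RNA per cell cannot be told apart.

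Of the 10 members, 4 were called higher in fasted liver (Gadd45g, Cdkn1a, Btg1 and Ccng2), 2 were called lower (Gadd45a and Ccnd1) and 4 were not called (Gadd45b, Btg2, Cdkn1b and Myc). A gene was called where limma gave an adjusted p under 0.10 over all probes and the change was at least 1.5-fold. The same rule called 1.88% of 15608 genes higher and 2.11% lower. Because the members were selected on this contrast, nothing is read from the difference between these shares. The median log2 ratio of the 10 members was 0.53, and that of all tested genes was 0.0055. The ratio had 1 sign on all 4 arrays for 8 members, the exceptions being Cdkn1b and Myc. The levels of the 4 fasted and the 4 refed livers did not overlap for 6 of 10 members, the same 6 that were called, and for 14.1% of all genes. These levels come from the same arrays as the calls, so the match is no separate support. Among these members, Gadd45a and Ccng2 passed the filter only through the group where they were higher. Without replicate 3, the 4 higher and the 2 lower members were again the ones called. When the background fit included a few spots with extreme local background, no member was called. The mean ratios under that fit were 2.02 for Gadd45g, 1.15 for Btg1 and 0.98 for Cdkn1a. They were 0.30 for Ccng2, -0.51 for Gadd45a and -0.53 for Ccnd1.

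**Figure D1:**
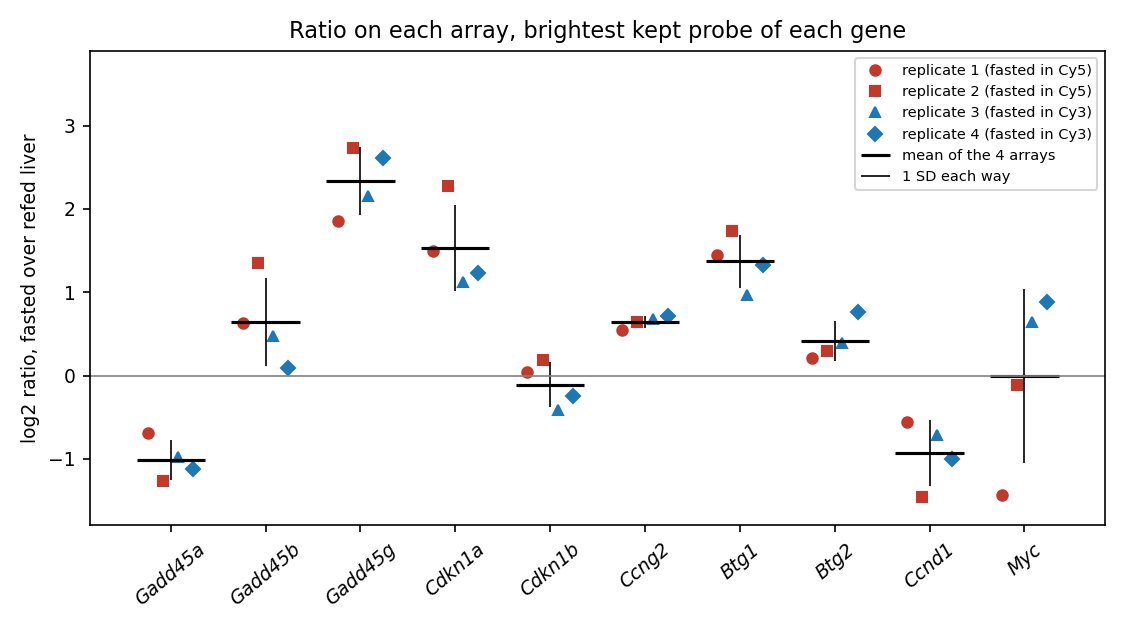
Log2 ratio of fasted over refed liver on each of 4 arrays for the 10 genes, by the brightest kept probe of each, with the mean (thick line) and 1 SD each way (thin line). Red points are arrays with the fasted liver in Cy5 and blue points those with it in Cy3. Gadd45g, Cdkn1a, Btg1 and Ccng2 lie above 0 on every array, Gadd45a and Ccnd1 lie below 0 on every array, and Myc runs from -1.44 to 0.88.

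Gadd45g had the largest ratio of the members. Its probe (chr13:51943733-51943792, plus strand) gave log2 levels of 13.38, 13.37, 12.54 and 13.76 in fasted livers 1 to 4 and of 11.52, 10.64, 10.38 and 11.15 in refed livers 1 to 4. All 4 fasted livers lay more than 1 log2 unit above the highest refed liver. The ratio was 1.85, 2.73, 2.16 and 2.61 on replicates 1 to 4, with a mean of 2.34 ± 0.41 (SD, n = 4), or 5.06-fold. The mean was 2.29 with the fasted liver in Cy5 and 2.39 with it in Cy3, and 2.40 without replicate 3. Levels are on a log2 scale after normalization across arrays and compare livers within a probe, not different genes.

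Gadd45a ran the other way. Its probe (chr6:66985376-66985435, minus strand) had levels of 6.46, 6.47, 6.68 and 6.88 in fasted livers and of 7.15, 7.73, 7.66 and 8.00 in refed livers. The groups did not overlap, and the lowest level of a refed liver was above the highest level of a fasted one. The ratio was -0.69, -1.26, -0.98 and -1.12, with a mean of -1.02 ± 0.24 (SD, n = 4), or 2.02-fold lower in fasted liver. The probe was dim, with raw fasted signals of 34.5 to 142, and it was well above background in 3 of 4 fasted and in all 4 refed livers, so it passed the filter through the refed group, where it was higher. It was not tested where both channels had to be well above background. The size depended on how the background was treated, with a mean of -2.27 from Agilent's processed signals and of -0.51 when the background fit included all spots. Without replicate 3 it was -1.03.

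Gadd45b lay between the other Gadd45 genes and was not called. Its probe (chr10:80394367-80394426, plus strand) had levels of 8.06, 8.83, 8.01 and 8.54 in fasted livers and of 7.43, 7.48, 7.54 and 8.44 in refed livers. Refed liver 4 was well above the other refed livers and overlapped the fasted range. The ratio was 0.63, 1.35, 0.47 and 0.09, with a mean of 0.64 ± 0.53 (SD, n = 4). All 4 arrays gave a positive value, but the SD was nearly as large as the mean. Gadd45b was called higher under 5 of 17 alternative settings, namely SAM, the deposited log2 ratios, the dye term, no background correction and Agilent's processed signals, and its mean ranged from 0.40 without replicate 2 to 0.94 with Agilent's processed signals, being 0.69 without replicate 3. Gadd45g was thus called higher, Gadd45a lower from a dim probe, and Gadd45b was not called in fasted liver.

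**Figure D2:**
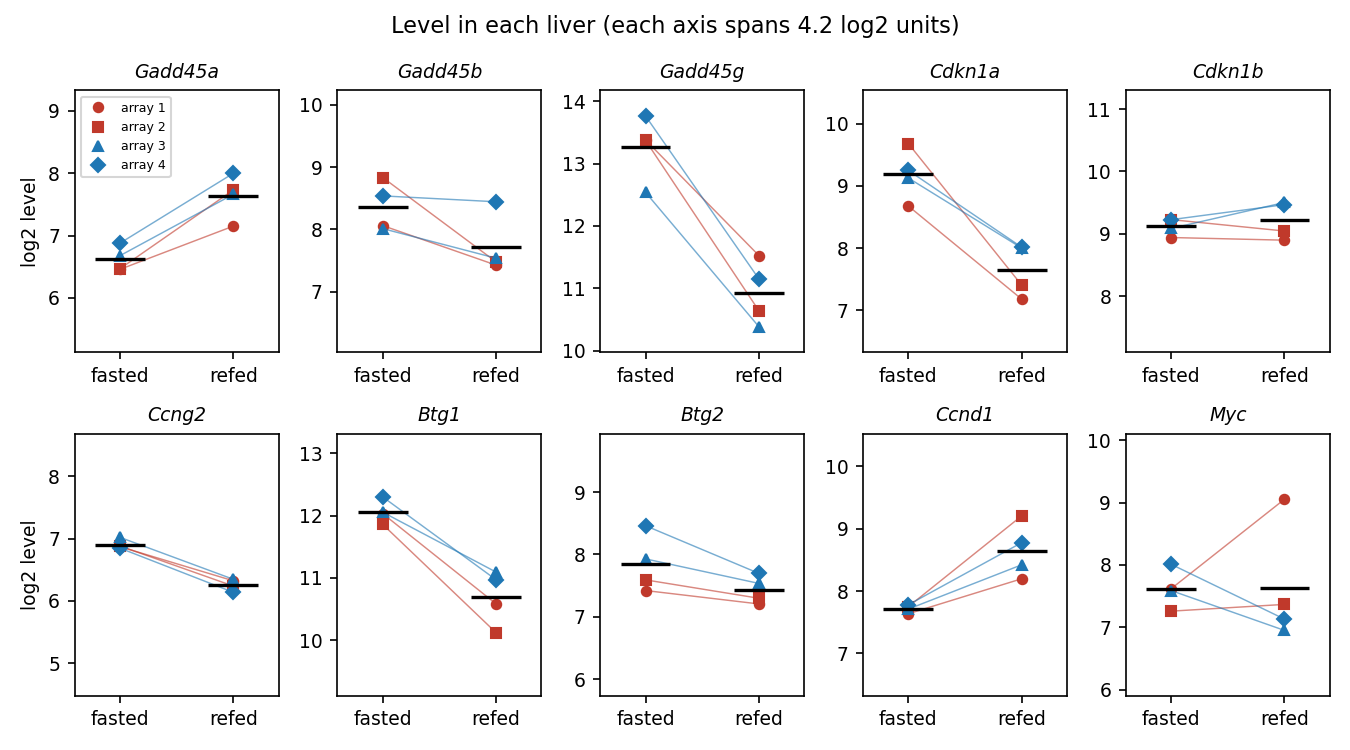
Log2 level of each gene in 4 fasted and 4 refed livers, by the brightest kept probe, with lines joining the livers of 1 array, black bars at group means, and red for arrays with the fasted liver in Cy5 and blue for those with it in Cy3. All axes span the same log2 range. The groups are apart for Gadd45a, Gadd45g, Cdkn1a, Ccng2, Btg1 and Ccnd1, and single refed livers stand out for Gadd45b (liver 4, 8.44) and Myc (liver 1, 9.05).

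Among the inhibitors of cyclin-dependent kinases, Cdkn1a was called higher in fasted liver and Cdkn1b was not called. Cdkn1a was measured by 2 probes of different sequence, 9391 bases apart on chromosome 17. The first 30 bases of each are shown because only the first was bright enough to be kept.
Cdkn1a, first probe: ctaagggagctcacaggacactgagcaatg
Cdkn1a, second probe: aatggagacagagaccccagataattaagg

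The first probe (chr17:29237377-29237436, plus strand) gave levels of 8.68, 9.68, 9.13 and 9.25 in fasted livers and of 7.18, 7.41, 8.00 and 8.01 in refed livers. The groups did not overlap. The ratio was 1.49, 2.27, 1.12 and 1.23, with a mean of 1.53 ± 0.52 (SD, n = 4), or 2.89-fold. The mean was 1.88 with the fasted liver in Cy5, 1.18 with it in Cy3, and 1.67 without replicate 3. With all spots in the background fit it was 0.98, and the call was lost. The dye effect itself had an adjusted p of 0.14 (limma). The second probe (chr17:29227986-29228045, plus strand) was well above background in 0 of 4 fasted and 1 of 4 refed livers, was not kept, and had ratios of -0.20, -0.21, 0.05 and 0.20. It was too dim to give a level, so the Cdkn1a probes could not be compared.

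The first Cdkn1a probe was printed in 10 copies on each array, 1 of 399 probes so repeated, which gives the spread between spots of 1 hybridisation. The spots that passed the quality flags had ratios from 1.34 to 1.59 on replicate 1 (9 spots), from 1.89 to 2.45 on replicate 2 (10 spots), from 1.0 to 1.25 on replicate 3 (10 spots) and from 1.06 to 1.47 on replicate 4 (9 spots). The SD between spots was 0.08 to 0.15, whereas the SD between arrays was 0.52. The copies share the livers, labelling and hybridisation of their array, so the SD between spots does not measure those steps.

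**Figure D3:**
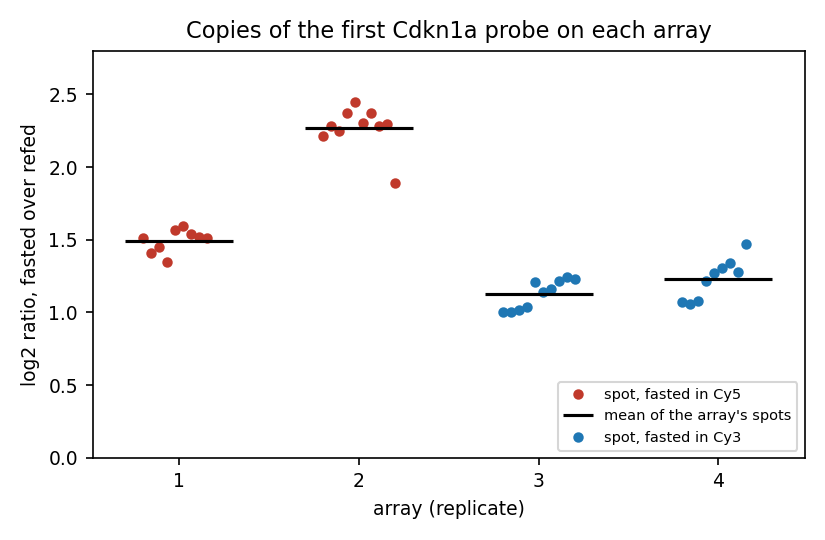
Log2 ratio of fasted over refed liver at each copy of the first Cdkn1a probe on 4 arrays, with a black line at the mean of the spots of an array. Spots of 1 array lie close together (SD 0.08 to 0.15) and every spot is above 0, while array means run from 1.12 to 2.27.

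Cdkn1b was measured by 2 kept probes, and neither was called. The brighter probe (chr6:134875424-134875483, plus strand) had levels of 8.94, 9.23, 9.09 and 9.23 in fasted livers and of 8.90, 9.04, 9.50 and 9.47 in refed livers. The ranges overlapped. Its ratio was 0.04, 0.18, -0.42 and -0.24 (mean -0.11 ± 0.27 SD, n = 4, and -0.01 without replicate 3), positive where the fasted liver carried Cy5 and negative where it carried Cy3. The other probe (chr6:134873606-134873665), which was dimmer, gave -0.23, -0.24, -0.30 and 0.10, with a mean of -0.17.

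The antiproliferative Btg1 was called higher in fasted liver and its relative Btg2 was not called. Btg1 was also measured by 2 probes, 3287 bases apart on chromosome 10, and the first 30 bases of each are shown since only the first was bright enough to be kept.
Btg1, first probe: gagtctttcccacaaaccaccatctatttt
Btg1, second probe: gcagctttaaatcagtcggatttatgaata

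The first Btg1 probe (chr10:96082071-96082130, plus strand) had levels of 12.03, 11.86, 12.05 and 12.30 in fasted livers and of 10.58, 10.12, 11.09 and 10.97 in refed livers. The groups did not overlap, and the fasted livers varied less (SD 0.18) than the refed livers (SD 0.44), a difference that was not tested. The ratio was 1.45, 1.74, 0.96 and 1.33, with a mean of 1.37 ± 0.32 (SD, n = 4), or 2.58-fold, and of 1.51 without replicate 3. The second probe (chr10:96085358-96085417, plus strand) was well above background in 3 of 4 fasted and 1 of 4 refed livers and gave 0.21, 0.25, 0.20 and 0.86. It was too dim to be set against the first.

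Btg2 (chr1:135972094-135972153, minus strand) had levels of 7.42, 7.59, 7.93 and 8.46 in fasted livers and of 7.21, 7.30, 7.53 and 7.70 in refed livers. Each fasted liver was above the refed liver on its own array, but the groups overlapped. The ratio was 0.22, 0.30, 0.39 and 0.76, with a mean of 0.42 ± 0.24 (SD, n = 4), which is under the 1.5-fold limit, and it was the same without replicate 3 (0.42). Btg2 was called higher under 2 of 17 alternative settings, Agilent's processed signals and no limit on fold.

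Ccng2 (chr5:93705131-93705190, plus strand) was called higher in fasted liver, from a dim probe. Its levels were 6.87, 6.88, 7.02 and 6.85 in fasted livers and 6.32, 6.24, 6.35 and 6.14 in refed livers. The ratio was 0.55, 0.64, 0.67 and 0.71, with a mean of 0.64 ± 0.07 (SD, n = 4). The probe was well above background in 4 of 4 fasted livers and in 1 of 4 refed livers, so it passed the filter through the fasted group, where it was higher, and it was not tested where both channels had to be well above background. The raw refed signals were 41 to 60, and no fold is given against a group that was mostly not well above background. The size of the log2 ratio depended on how the background was treated. Its mean was 2.15 from Agilent's processed signals and 0.30 with all spots in the background fit. Without replicate 3 it was 0.63. At a limit of 2-fold, and also with all spots in the background fit, the call was lost.

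Of the genes that promote the cell cycle, Ccnd1 was called lower in fasted liver. Its probe (chr7:152116202-152116261, minus strand) had levels of 7.64, 7.75, 7.71 and 7.78 in fasted livers and of 8.20, 9.21, 8.42 and 8.78 in refed livers. The groups did not overlap, and the fasted livers lay closer together (SD 0.06) than the refed livers (SD 0.44), a difference that was not tested. The ratio was -0.56, -1.46, -0.71 and -1.0, with a mean of -0.93 ± 0.39 (SD, n = 4), or 1.91-fold lower, and of -1.01 without replicate 3. The call was lost at a limit of 2-fold and with all spots in the background fit, which gave a mean of -0.53.

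Myc was not called, and its arrays disagreed. Its probe (chr15:61821417-61821476, plus strand) had levels of 7.62, 7.26, 7.59 and 8.01 in fasted livers and of 9.05, 7.37, 6.95 and 7.13 in refed livers. Refed liver 1 was the highest of all 8 livers. The ratio was -1.44, -0.11, 0.64 and 0.88, with a mean of -0.01 ± 1.04 (SD, n = 4), the widest spread of the members. The mean was -0.77 with the fasted liver in Cy5 and 0.76 with it in Cy3. Such a change of sign with orientation was common, with 11.7% of all genes split as Myc was and 12.1% split the other way. An effect of dye and a difference between the pairs of livers hybridised in each orientation cannot be told apart here, since each orientation held its own 2 pairs. The mean was 0.47 without replicate 1, 0.03 without replicate 2, -0.22 without replicate 3 and -0.30 without replicate 4, and Myc was called in none of these.

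The choice of members did not use the dye effect, so it was tested. It was fitted as the ratio of Cy5 over Cy3 beside the fasted over refed ratio. The dye effect passed an adjusted p of 0.10 for 2 of 10 members, against 15.5% of all genes, a share close to that background. The background itself depended on the processing, with 2913 probes passing in the main fit and 1138 with all spots in the background fit. It was 569 after median centring and 451 with Agilent's processed signals. The 2 members with a dye effect were Myc and Cdkn1b. The dye log2 ratio was -0.77 for Myc (adjusted p = 0.081, limma) and 0.22 for Cdkn1b (adjusted p = 0.099, limma). For the 6 called members it lay between -0.08 and 0.35, and none passed. Across the called members, the largest absolute ratio fell on replicate 2 for 5 of 6 and on replicate 4 for Ccng2. The SD of the ratios of all genes was 0.36, 0.40, 0.38 and 0.40 on replicates 1 to 4.

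Genes of related pathways, with the members left out, were measured in 9 lists of 112 genes, of which 87 were tested. Among these 87, 5 rose in fasted liver and 3 fell, against 1.88% and 2.11% of all genes. The median log2 ratio of the 87 was -0.02, against 0.0055 for all genes. The lists were chosen with earlier results known, so nothing is read from these shares. For the same reason the p-values of listed genes given below are descriptive and not independent tests. The rises were in the FOXO, p53 and proliferation lists, and the falls in the GADD45 partner, p53 and MYC target lists. The counts were 4 and 3 without replicate 3, where Rrm2 lost its call, 9 and 6 without replicate 1, where Tob1, Tob2, Bbc3, Plk3, Odc1, Nop56 and Nop58 were called as well, and 0 and 0 with all spots in the background fit, where 3 and 6 of the 87 had an unadjusted p under 0.05. In the lists that follow, the count at an unadjusted p under 0.05 in limma and that of SAM, an alternative test at the same limits, are given beside each count of 0. Of all 15608 genes, 10.4% were higher and 11.8% lower at that unadjusted limit.

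FOXO factors are transcription factors that insulin shuts out of the nucleus, and 3 of 8 tested genes of their list rose while none fell (median 0.52). SAM called 4 higher and 0 lower, and 0 of the list were lower at an unadjusted p under 0.05. Igfbp1, a secreted binding protein of insulin-like growth factors, had ratios of 6.72, 6.41, 4.52 and 4.55, with a mean of 5.55 ± 1.18 (SD, n = 4, adjusted p = 0.004, limma) and of 5.89 without replicate 3. Txnip, an inhibitor of thioredoxin and of glucose uptake, had 1.28, 1.27, 1.84 and 2.24 (mean 1.66, adjusted p = 0.009, limma), and its second probe 0.94. Irs2, an adaptor of the insulin receptor, had 1.38, 0.92, 1.21 and 1.88 (mean 1.35, adjusted p = 0.011, limma). All 3 were higher in fasted liver on all 4 arrays, and without replicate 3 the means of Txnip and Irs2 were 1.6 and 1.4.

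Of 20 tested genes of the p53 list, 1 rose and 1 fell (median -0.01), and Cdkn1a and Gadd45a, which p53 can also induce, are members and not counted there. Trp53inp1, a stress protein that acts in autophagy and cell death, had ratios of 2.03, 3.0, 0.85 and 1.11 (mean 1.75, adjusted p = 0.041, limma), and its second probe had 0.90. Tigar, a fructose bisphosphatase that slows glycolysis, had -0.49, -0.80, -0.91 and -1.14 (mean -0.83, adjusted p = 0.016, limma). Without replicate 3 the means of Trp53inp1 and Tigar were 2.05 and -0.81. Trp53 itself had a mean of 0.03 ± 0.10 (SD, n = 4) and was not called. It was named after its values were seen.

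Of the 12 tested GADD45 partners and other GADD genes, none rose and 1 fell (median -0.08). SAM gave the same counts, and 1 gene was higher and 3 were lower at an unadjusted p under 0.05. The called gene was Ddit3, the stress transcription factor CHOP, with ratios of -1.61, -2.02, -1.82 and -1.78 (mean -1.81 ± 0.17 SD, n = 4, adjusted p = 0.002, limma). Ddit3, like the member Gadd45a, was lower in fasted than in refed liver on all 4 arrays, and its mean without replicate 3 was -1.8.

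Of 13 tested MYC targets, none rose and 1 fell (median -0.38). At an unadjusted p under 0.05, 1 was higher and 8 were lower, and SAM called 0 higher and 2 lower. The gene called in limma was Srm, the spermidine synthase, with -1.01, -1.54, -1.16 and -1.38 (mean -1.27, adjusted p = 0.005, limma), its mean without replicate 3 was -1.31, and its second probe gave -1.26. Of the 6 tested MYC partners none was called in limma or SAM, with 2 higher and 1 lower at an unadjusted p under 0.05, and the largest ratio was that of Max, the dimer partner of Myc, at -0.42 (adjusted p = 0.045, limma), under the limit on fold.

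Of 12 tested proliferation markers 1 rose and none fell (median 0.13). SAM gave the same counts, and at an unadjusted p under 0.05, 2 were higher and 0 lower. Rrm2, a subunit of ribonucleotide reductase, had 0.47, 1.17, 0.76 and 0.25 (mean 0.66, adjusted p = 0.061, limma). It was not called without replicate 2 (0.49) or without replicate 3 (0.63). Mki67, the marker of cycling cells, had a mean of 0.12 ± 0.32 (SD, n = 4) and was not called. It too was named after its values were seen.

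Among 10 other tested cyclins and kinases of G1 and their partners, none was called in limma or SAM (median -0.06), with 2 higher and 3 lower at an unadjusted p under 0.05. The largest ratio was that of Rb1, the retinoblastoma protein that holds back E2F factors, at 0.45 (adjusted p = 0.041, limma), under the limit on fold. None of the 3 other tested CDK inhibitors was called in limma or SAM (median 0.15), 1 was higher at an unadjusted p under 0.05, and the largest ratio was 0.22 for Cdkn2c (adjusted p = 0.18, limma). None of the 3 other tested BTG and TOB genes was called in limma or SAM (median 0.51), and 2 were higher at an unadjusted p under 0.05. The largest of these was Tob2, an antiproliferative relative of Btg1, at 0.58 (adjusted p = 0.040, limma), just under the limit of 1.5-fold.

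**Figure D4:**
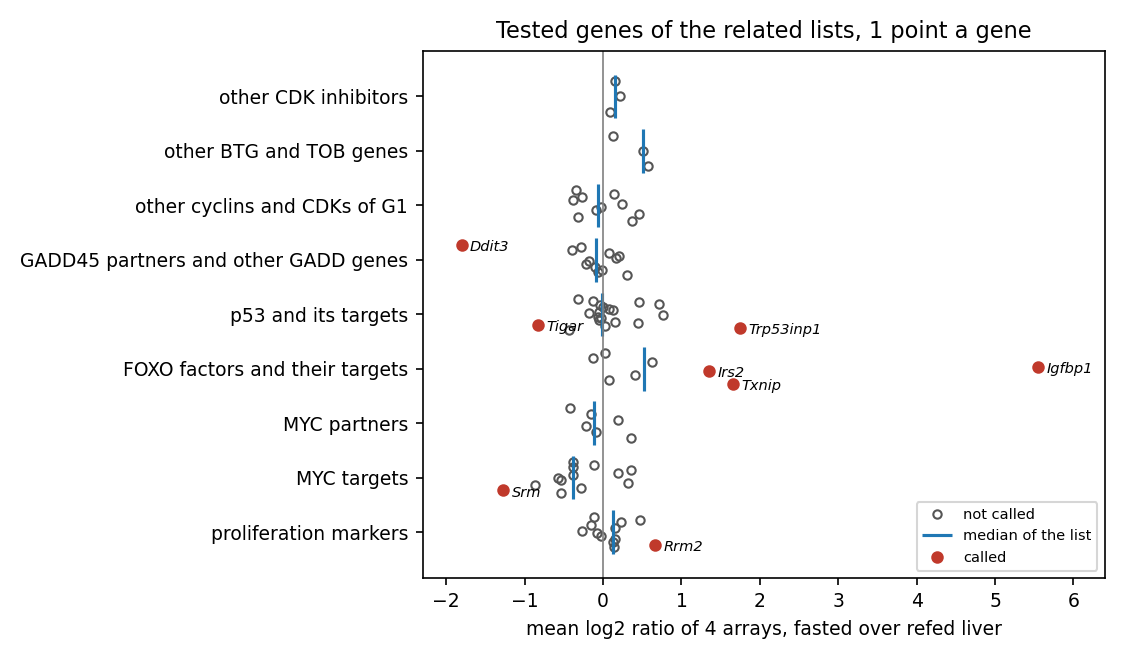
Mean log2 ratio of fasted over refed liver over 4 arrays for each tested gene of 9 related lists, 1 point a gene, with called genes filled and named and a blue line at the median of each list. Of 87 genes, 5 called genes lie above 0, led by Igfbp1 at 5.55, and 3 lie below 0, led by Ddit3 at -1.81. Most genes lie near 0.

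The genes outside the members whose 4 ratios lay nearest to those of a member, by the root mean square difference over the 4 arrays, are given as a description. Nearest to Gadd45g were Slc25a47, a mitochondrial carrier of liver (difference 0.26), Egr1, an immediate early transcription factor (0.35), and Mfsd2a, a lysophospholipid transporter (0.49). Nearest to Cdkn1a were Cebpd, a transcription factor (0.19), Slc25a25, a mitochondrial carrier of ATP (0.34), and Errfi1, an inhibitor of EGF receptor signalling (0.35). The means of these 6 genes ran from 1.18 to 2.15.

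Nearest to Gadd45a were Ero1b, an oxidase of the endoplasmic reticulum (0.063), Dapk2, a death-associated kinase (0.063), and Hspa13, a chaperone of the Hsp70 family (0.067). Nearest to Ccnd1 were Nans, the sialic acid synthase (0.13), Pter (0.15) and Nme6 (0.17), and nearest to Gadd45b were Aass, an enzyme of lysine breakdown (0.075), Spata2l (0.12) and Slco1a4, an organic anion transporter (0.15). The distances were not compared between members.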

How the data were processed

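Per the labels, 200 ng of total RNA per liver was amplified, labelled with Cy3 or Cy5 and hybridised in a dye swap. The authors deposited scanner files (Agilent Feature Extraction 10.10.1.1) with raw intensity, local background and quality flags per spot. They also deposited a table of log2 ratios, used here as an alternative only. Its identifiers were read as the row order of the spots, which gave a scale and direction that follow the scanner values (r of 0.975 to 0.992). Read as spot numbers, they gave r of 0.02 to 0.07, so the match rests on this correlation. The background step of that table is not given in the sources used here. All arrays lay on 1 slide. That each liver came from a separate mouse is taken from the study's methods, which describe RNA of individual livers. The p-values measure the spread between these 4 pairs.

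Median signals were corrected with normexp (offset 50) and loess in limma 3.58.1 (R 4.3.3). The offset shrinks the ratios of dim probes. Control spots, flagged spots (197 to 322 of 44397 an array) and spots with a local background over 3 times the array median (0 to 29) were left out. Repeated spots were averaged per probe. Of 39429 probes, 19719 were kept, namely those that were well above background in all 4 fasted or all 4 refed livers and complete. The brightest of them stood for its gene. Levels of single livers were taken after Aquantile normalization. Tests used lmFit and eBayes (limma), adjusted by Benjamini-Hochberg across the kept probes, and 335 probes were called higher and 409 lower. The steps were tested on simulated data.

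The members, lists and tests were chosen with earlier results of these data known, as was the limit on local background. Besides all members, the genes named are the called genes of each list (up to 3 in each direction) or, where none was called, its largest ratio, and the 3 genes nearest to each of 5 members. Coordinates of probes are in mm9. The alternatives covered background, normalization, filters, flags, dye term, test, limits and leaving out each replicate.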

Additional observations from a re-analysis of the deposited data

Results flagged for a closer look

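The level of Gadd45b in the 4 refed livers held a sample far from the others. Refed liver 4 was at 8.44 on the log2 scale, against 7.43, 7.48 and 7.54 in refed livers 1 to 3, so that the gap to the nearest liver took up 0.891 of the range of the group, which is above Dixon's limit for 4 values. It was 1 of 30 sets of values so examined, and chance alone marks about 1 set in 20. The ratio on the array of that liver, 0.09, was the smallest of the 4 Gadd45b ratios.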

How the results depend on the processing

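The 6 called members had the same direction under every alternative in which they were tested. With all spots in the background fit, limma called 0 members higher and 0 lower, 0 and 0 related genes (3 and 6 at an unadjusted p under 0.05) and 5 and 16 probes, and 1138 probes had a dye effect in place of 2913. The members called higher numbered 6 with Agilent's processed signals and 5 with SAM, the deposited log2 ratios, the dye term, no background correction or no limit on fold, with 2 lower in each. With Agilent's processed signals the related genes were 11 and 7 and the probes 688 and 884, with 451 dye effects. At a 2-fold limit 3 members were higher and 1 lower, since Ccng2 and Ccnd1 lost their calls, with 99 and 132 probes. With no limit on fold the related genes were 13 and 11 and the probes 931 and 1205. Where both channels had to be well above background, 3 members were higher and 1 lower, since Gadd45a and Ccng2 were then not tested. A dye term gave 8 related genes that were higher. Median centring gave 230 probes higher and 635 lower in place of 335 and 409, 6 related genes that were lower and 569 dye effects, while the member counts stayed at 4 and 2.

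With 1 replicate left out at a time, the probes called higher numbered 208 to 413 and those called lower 256 to 525, the related genes 4 to 9 and 3 to 6, and the members 4 and 2 throughout. The lowest counts of probes came without replicate 3, and the highest counts of related genes without replicate 1. Signal over background limited the dim probes, among them Gadd45a, Ccng2, the dimmer probe of Cdkn1b and the probes of Cdkn1a and Btg1 that were not kept. The fasted over refed means of all 4 arrays hold both dye orientations equally, and those with a replicate left out do not. A dye effect of a single gene rests on different livers in each orientation. The test on ratios within arrays is already paired by array.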

Other observations

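Myc was not the only gene whose ratio changed sign with the dye orientation. Of the 87 tested related genes, 9 were lower in fasted liver on replicates 1 and 2 and higher on replicates 3 and 4, as Myc was, and 7 ran the other way, against 11.7% and 12.1% of all genes. Of the 9, Ncl, a nucleolar protein, had ratios of -0.09, -0.40, 0.50 and 0.77, and Bax, a promoter of cell death, had -0.40, -0.64, 0.24 and 0.27. Of the 7, Bcl6, a transcriptional repressor, had ratios of 1.31, 1.72, -1.14 and -1.82 on replicates 1 to 4, and Ddit4, an inhibitor of mTORC1, had 2.90, 1.33, -0.67 and -0.69. Klf15, a transcription factor of amino acid and glucose metabolism, had 1.05, 1.18, -0.24 and -0.34. These genes were chosen after their values were seen, and none was called. Whether this follows the dye or the 2 pairs of livers in each orientation cannot be told apart. Over all kept probes, the ratios of replicates 1 and 2 correlated at 0.66 and those of replicates 3 and 4 at 0.75, while arrays of opposite orientation correlated at 0.22 to 0.40 (across probes, which are not independent replicates).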
